A study of Mus musculus with 6 samples.

Results

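The genes described here are 10 Kruppel-like factor genes, Klf2, Klf3, Klf4, Klf5, Klf6, Klf7, Klf9, Klf10, Klf13 and Klf15. They were chosen by symbol from the 23478 genes of the deposited count table. No measured value entered the rule, but earlier results of these data were known. All 10 passed the filter on low counts. The RNA came from mouse embryos of day 13.5, whose tracheas were dissociated and sorted. All embryos carried floxed Bmp4 alleles (Bmp4 f/f) and gamma SMA eGFP, a fluorescent reporter for the gamma actin of smooth muscle, all libraries are titled as controls, and no Cre or treatment is named. Muscle was gated on GFP and epithelium on surface Epcam, with 3 libraries of each. The muscle gate thus holds cells in which the reporter was active, and the labels do not say whether embryos were pooled or whether the libraries came from separate litters, so p-values measure the spread between these libraries, which may be technical.

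Kruppel-like factors are transcription factors that bind GC-rich DNA and CACCC sequences through 3 zinc fingers near their carboxyl end. The fingers are alike across the family, and the amino-terminal parts differ and recruit different partners. Klf3 binds the corepressor CtBP. Klf2, Klf4, Klf5, Klf6 and Klf7 act largely as activators and several of them recruit histone acetyltransferases. Klf9, Klf10 and Klf13 recruit the Sin3 corepressor. In the airway, Klf5 is known as a factor of the epithelium, Klf4 as a repressor of contractile genes in cultured smooth muscle, and Klf2 as a factor of the endothelium.

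The sequences before the start sites of 4 members are shown. Klf3 and Klf6 were called higher in epithelium, and Klf2 and Klf4 had higher values in muscle that did not pass the threshold. Klf5 and Klf10, which changed most among the called members, had no promoter sequence to show. The 4 sequences are from RefSeq on GRCm38.p6, the same build as the mm10 named in the submitters' processing notes, and are read 5′ to 3′ on the gene's strand. Each stops before the first base of the gene that GENCODE M21 annotates as exon. Capitals mark the GC box (GGGCGG), the CACCC box (CACCC) and, in Klf2 alone of the 4, a match to the MEF2 site, each on either strand.
Klf3: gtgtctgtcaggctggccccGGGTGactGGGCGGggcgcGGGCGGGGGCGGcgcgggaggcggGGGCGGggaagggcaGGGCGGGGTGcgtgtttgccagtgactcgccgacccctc
Klf6: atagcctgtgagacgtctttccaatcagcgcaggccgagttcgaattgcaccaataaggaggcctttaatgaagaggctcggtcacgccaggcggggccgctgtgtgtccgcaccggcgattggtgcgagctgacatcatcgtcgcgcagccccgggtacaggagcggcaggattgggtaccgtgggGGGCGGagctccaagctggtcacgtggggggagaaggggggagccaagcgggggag
Klf2: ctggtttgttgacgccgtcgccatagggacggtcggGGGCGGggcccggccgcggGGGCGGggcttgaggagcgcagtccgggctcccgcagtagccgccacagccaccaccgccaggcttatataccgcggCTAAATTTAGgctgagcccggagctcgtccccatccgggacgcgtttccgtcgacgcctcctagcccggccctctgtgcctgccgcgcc
Klf4: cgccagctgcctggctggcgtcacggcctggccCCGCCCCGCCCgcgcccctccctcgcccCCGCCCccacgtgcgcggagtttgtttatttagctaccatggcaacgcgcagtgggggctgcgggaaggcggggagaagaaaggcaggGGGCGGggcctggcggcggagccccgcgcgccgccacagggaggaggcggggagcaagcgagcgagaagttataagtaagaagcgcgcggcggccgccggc
Their positions are chr5:64803271-64803387 on the plus strand for Klf3, chr13:5861239-5861481 on the plus strand for Klf6, chr8:72318812-72319032 on the plus strand for Klf2 and chr4:55532476-55532725 on the minus strand for Klf4. Of the 10 members, 8 were matched in the promoter table; Klf5 and Klf10 were not. Over the whole window of 250 bases, 7 of the 8 held a GC box, against 33.0% of 32544 promoter windows of the same length, and Klf9 was the one without. A CACCC box was in 6 of the 8, against 52.1% of all windows, and Klf4 and Klf6 had none. Klf3 had the most of both, 6 GC boxes and 5 CACCC boxes, some of which share bases where the letters run on. GC content was 59.2% to 78.4% in the 8 windows, against a median of 52.4%. Klf6 held 4 matches to the CCAAT box (CCAAT), which 33.8% of all windows hold. The MEF2 match of Klf2 lies 118 to 109 bases before the RefSeq start site, and 2.89% of all windows have such a match. That position counts from the end of the whole window at 72319061, while the sequence shown stops earlier, at 72319032. These are matches of letters and were not measured as binding sites.

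The libraries held 11847432 to 54848820 counts. Actg2, the gamma smooth muscle actin gene, averaged 1876 ± 1287 CPM (counts per 1000000, scaled between libraries; SD, n = 3) over the muscle libraries and 2.17 ± 0.50 over the epithelial ones, and Epcam had 1.53 ± 0.80 and 598 ± 96.9. Muscle replicate 2 stood apart, with 403 CPM of Actg2 against 2438 and 2786 in replicates 1 and 3, and 8 smooth muscle markers summed to 3866 CPM in it against 15814 and 16848. Without that library the same number of members, 4 in epithelium and 0 in muscle, passed the test used below. The sum of 7 cartilage markers was higher in the muscle libraries, 657 to 1134 CPM there and 230.4 to 473 in epithelium. Sox9 and Col9a1 were called higher in muscle, while Col2a1 overlapped and Acan, Matn1 and Comp were under 15 CPM in every library. Not all markers had higher values in muscle. Matn1, Comp and Hapln1 had log2 fold changes of -1.71, -1.76 and -0.67, with overlap and no call. The part of such cells in the members' values was not tested. Of 5 mesothelial genes, Krt19, which epithelium also expresses, was the one called, higher in epithelium, and the other 4 overlapped. The remaining lists were low in sum, with ranges that overlapped between muscle and epithelium. The 9 immune genes summed to 3.42 to 55.2 CPM and 8 neural and glial genes to 27.9 to 76.1. The 9 erythroid genes summed to 10.7 to 45.6 CPM. Of these, 4 adult globin genes had 0 counts in every library, which was not explored, so the sum rests on the others. Among the others, Hbb-y had 187 to 1372 counts. Olfactory and vomeronasal receptor genes, which neither population should use, had counts in 73.4% to 78.8% of cases in muscle replicate 2, epithelium replicate 2 and epithelium replicate 3 and in 2.90% to 17.4% in the other libraries. These background counts averaged 1.24 CPM per receptor gene in epithelium replicate 2 and 0.433 in epithelium replicate 3, against 0.60 for muscle replicate 2. They averaged 0.0252 and 0.016 CPM in muscle replicates 1 and 3 and 0.00447 in epithelium replicate 1. The members nearest to the higher averages were Klf2 and Klf15 in epithelium replicates 2 and 3 and Klf15 and Klf5 in muscle replicate 2. In the other libraries these members were far above the averages. Klf5 had 1.56 and 1.21 CPM in muscle replicates 1 and 3, and Klf15 had 0.342 and 1.47. In epithelium replicate 1, Klf2 and Klf15 had 2.14 and 2.51 CPM. A row of dates in the file header does not separate the libraries. Identifiers in another header row, whose meaning is not stated, hold digits that can be read as dates; read so, they place the replicates numbered 2 on day 3 of month 9 and the other 4 libraries on day 16.

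Of the 10 genes, 4 were higher in epithelium and none was higher in muscle at an adjusted p under 0.05 (edgeR quasi-likelihood test, Benjamini-Hochberg over 19375 genes). Those 4 were Klf5, Klf10, Klf6 and Klf3. In such bulk samples, fewer cells that express a gene and less of its RNA per cell cannot be told apart. Over all tested genes, 4.11% were called higher in epithelium and 6.58% higher in muscle, 797 and 1274 genes, and these became 1439 and 1041 when libraries were scaled by their size only. At an unadjusted p under 0.05 in edgeR, 5 members were higher in epithelium and 3 in muscle. Of all 19375 tested genes, 1584 and 2613 were so. For muscle, the Wald test of DESeq2 called 1 member, Klf2, and limma-voom called 0. Of all 19375 tested genes they called 1954 and 1590 in that direction. The median log2 fold change of muscle over epithelium was -1.35 over the members and -0.10 over all tested genes. The libraries of the populations did not overlap in 8 members, 5 with the higher values in epithelium and 3 in muscle, where 10.5% and 16.4% of all tested genes did not overlap in those directions. The 10 genes lie on 10 different chromosomes, so they are no cluster of neighbours.

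**Figure D1:**
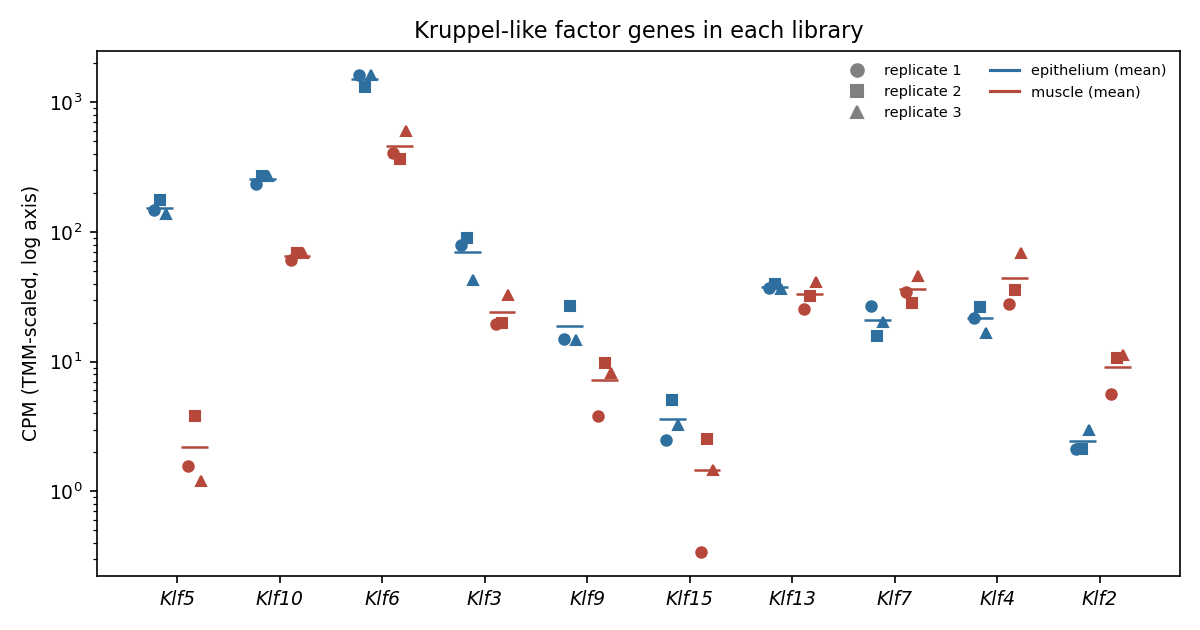
CPM of the 10 genes in each of the 6 libraries, on a log axis, with symbols for the replicate number, blue for epithelium, red for muscle and lines at the means. Klf5 stands at 138 to 175 CPM in epithelium and at 1.21 to 3.84 in muscle, and only Klf13 and Klf15 have overlapping populations.

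Klf5 differed most. This activator, which many proliferating epithelia express, had 149, 175 and 138 CPM in epithelium replicates 1 to 3 and 1.56, 3.84 and 1.21 CPM in muscle replicates 1 to 3. Every epithelial library was far above every muscle library, and the spread within epithelium was small. The mean was 154 ± 19.3 CPM (SD, n = 3) in epithelium and 2.21 ± 1.43 in muscle, a log2 fold change of muscle over epithelium of -6.15 ± 0.48 (SE, adjusted p = 0.00019, edgeR) or 71.2-fold more in epithelium. Of the muscle libraries, replicate 2 had the highest Klf5 and the most background counts, and without it the log2 fold change was -6.79. Without the 3 libraries with many background counts it was -6.93. The muscle level of Klf5 was 1.01%, 2.50% and 0.789% of the epithelial mean in replicates 1 to 3, while the summed level of 8 epithelial markers was 0.334%, 0.565% and 0.669% of theirs. Whether epithelial RNA or background counts make up the muscle level was not tested.

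The gene lies on chromosome 14 (99298691 to 99315036, plus strand, mm10). Oesophageal and squamous markers were set beside Klf5 because stratified epithelia also express it. Their 7 genes summed to 71.9 to 154 CPM in epithelium and to 1.29 to 8.24 in muscle. Of the 5 that were tested, Trp63 and Krt15, which tracheal basal cells also express, were the 2 called higher in epithelium. Krt13 was at 0 to 0.936 CPM and Sprr3 at 0 to 1.60 in the epithelial libraries, and Krt4 at 0.372, 10.9 and 9.54. Krt5 had 19.5, 0.334 and 0.526 CPM in epithelium replicates 1 to 3, and Krt14 had 0.297, 6.88 and 0.939. The part of such cells in the Klf5 difference was not tested.

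Klf6 was the most abundant member in every library. It is an activator that tissues express widely and that responds early to injury. It had 1636, 1316 and 1618 CPM in epithelium replicates 1 to 3 and 407, 367 and 599 in muscle replicates 1 to 3. The lowest epithelial library was above the highest muscle library by more than 2-fold. Means were 1523 ± 180 CPM in epithelium and 458 ± 124 in muscle (SD, n = 3), a log2 fold change of -1.74 ± 0.28 (SE, adjusted p = 0.0045, edgeR), 3.33-fold more in epithelium. Klf6 spans 5861482 to 5870394 of chromosome 13 on the plus strand.

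The other 3 activators had higher values in the muscle libraries, and none of them passed the threshold. Klf4, known from epithelial differentiation and from the repression of contractile genes, had 28.1, 35.8 and 68.7 CPM in muscle replicates 1 to 3, against 21.7, 26.5 and 16.7 in epithelium. All muscle libraries were above all epithelial ones, but by little, 28.1 against 26.5 at the nearest, and muscle replicate 3 stood high. The log2 fold change of 1.03 ± 0.36 (SE) did not pass the threshold (adjusted p = 0.12, edgeR). Over 18 alternatives its adjusted p was 0.067 to 0.49, and none called it.

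Klf2 had 5.66, 10.7 and 11.2 CPM in muscle replicates 1 to 3, against 2.14, 2.14 and 3.00 in epithelium. The populations did not overlap, and the levels were low, 32 to 443 counts per library. Its log2 fold change was 1.92 ± 0.60 (SE) and did not pass (adjusted p = 0.083, edgeR). DESeq2 (adjusted p = 0.0069) and the edgeR fit with background counts as a covariate (0.024) called it, and over the 18 alternatives the adjusted p was 0.0069 to 0.46. Since endothelium expresses Klf2, 9 endothelial markers were summed. They reached 75.6 to 107 CPM in muscle and 14.3 to 75.6 in epithelium. The lowest muscle sum equalled the highest epithelial one, which was in epithelium replicate 2, the library with the most background counts. Of the 9 markers, Esam was the one called higher in muscle. Tek had 31.3 ± 4.23 CPM in muscle and 6.93 ± 7.53 in epithelium (SD, n = 3) without overlap, 2.20 ± 0.83 as log2 fold change, and was not called (adjusted p = 0.15, edgeR). The other 7 overlapped, among them the endothelial junction genes Cdh5 (log2 fold change 0.09 ± 2.04, adjusted p = 0.99, edgeR) and Pecam1 (0.21 ± 1.33, adjusted p = 0.97), at under 7 CPM in every library. The part of endothelial RNA in the Klf2 values was not tested. Background counts averaged 1.24 CPM per receptor gene in epithelium replicate 2, where Klf2 had 2.14, and without the 3 libraries with many background counts the log2 fold change of Klf2 was 1.79 (adjusted p = 0.15, edgeR).

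Klf7, known from neurons and their outgrowth, had 34.2, 28.6 and 45.5 CPM in muscle replicates 1 to 3, against 26.9, 15.7 and 20.4 in epithelium. The populations came as close as 28.6 and 26.9 CPM without overlap. The log2 fold change of 0.78 ± 0.29 (SE) did not pass the threshold (adjusted p = 0.14, edgeR), nor under any of the 18 alternatives (0.051 to 0.53). Of the 10 members, Klf7 alone shares exon bases with other genes in GENCODE M21, most of them, up to 2815 bases, with the long noncoding gene Gm26649 on the opposite strand, and libraries of this kind keep no strand in standard use, so its counts may hold reads of both.

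Klf3, the CtBP-binding repressor, was higher in epithelium. It had 78.8, 90.4 and 42.8 CPM in epithelium replicates 1 to 3 and 19.7, 19.9 and 32.9 in muscle. The libraries numbered 3 came nearest to each other, at 42.8 and 32.9 CPM. The mean was 70.7 ± 24.8 CPM in epithelium and 24.2 ± 7.61 in muscle (SD, n = 3), with a log2 fold change of -1.55 ± 0.35 (SE, adjusted p = 0.021, edgeR) and 2.92-fold more in epithelium. The gene spans 64803388 to 64832901 of chromosome 5 on the plus strand. Klf3 passed in 14 of 18 alternatives, and the other 3 called members in all 18. Among the settings in which it did not pass were the fit without muscle replicate 1 (adjusted p = 0.081, edgeR), the fit in the 4 libraries of the later identifier date (0.082) and the fit blocked on replicate number (0.073). Its partner genes Ctbp1 (log2 fold change -0.05 ± 0.33, adjusted p = 0.97) and Ctbp2 (-0.36 ± 0.24, adjusted p = 0.51) did not pass the threshold in edgeR.

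Of the 3 members that recruit Sin3, Klf10 was called. Klf10, which transforming growth factor beta induces early, had 235, 270.1 and 269 CPM in epithelium replicates 1 to 3 and 60.7, 68.5 and 68.4 in muscle. Both populations were tight, with a coefficient of variation of 7.86% in epithelium and 6.85% in muscle. Epithelium had 258 ± 20.3 CPM and muscle 65.9 ± 4.51 (SD, n = 3), a log2 fold change of -1.97 ± 0.22 (SE, adjusted p = 0.00096, edgeR), 3.92-fold more in epithelium. Klf10 spans 38291463 to 38300706 of chromosome 15 on the minus strand. With Klf5 and Klf6 it was called in all 18 alternatives.

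Klf9, a target of the glucocorticoid receptor in many tissues, had 15.0, 26.8 and 14.6 CPM in epithelium replicates 1 to 3 and 3.84, 9.69 and 8.16 in muscle. The populations did not overlap. Its log2 fold change of -1.38 ± 0.44 (SE) did not pass (adjusted p = 0.088, edgeR), with 0.039 to 0.25 over the 18 alternatives, of which DESeq2 (0.039) and the fit with the identifier date as a term (0.046) called it. Klf13, known from lymphocytes and heart, had 37.0, 39.5 and 36.4 CPM in epithelium and 25.7, 32.3 and 41.5 in muscle. The muscle libraries spanned the epithelial ones, with -0.18 ± 0.25 as log2 fold change (SE, adjusted p = 0.86, edgeR). It had the narrowest epithelial spread of the members, a coefficient of variation of 4.41%.

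Klf15, a glucocorticoid-responsive factor of muscle and liver metabolism, had the lowest average CPM of the members over all 6 libraries; in epithelium Klf2 was lower. It had 2.51, 5.08 and 3.27 CPM in epithelium replicates 1 to 3 and 0.342, 2.55 and 1.47 in muscle, from 9 to 135 counts. Within each population the highest value was in the replicate numbered 2, the libraries with the most background counts. At -1.32 ± 1.18 as log2 fold change (SE, adjusted p = 0.71, edgeR), Klf15 did not pass the threshold. Leaving out 1 library at a time gave -1.98 to -0.84, with -1.98 without muscle replicate 2, and none of these passed. The glucocorticoid receptor gene Nr3c1 had 108 ± 26.1 CPM in muscle and 78.2 ± 3.97 in epithelium (SD, n = 3), and the difference of 0.47 ± 0.24 on the log2 scale did not pass (adjusted p = 0.34).

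Levels of different genes were compared as CPM per kb of exon, with exon lengths from GENCODE M21. In muscle the order of mean CPM per kb was Klf6, Klf10, Klf4, Klf2, Klf13, Klf3, Klf7, Klf9, Klf15 and Klf5. In epithelium it was Klf6, Klf10, Klf5, Klf3, Klf4, Klf13, Klf9, Klf7, Klf15 and Klf2. Klf5 thus stood last of 10 in muscle and the third in epithelium, at 0.424 ± 0.275 and 29.6 ± 3.65 CPM per kb (SD, n = 3). Klf2 stood next after Klf4 in muscle and last in epithelium, at 4.97 ± 1.66 and 1.31 ± 0.269. The ranges of neighbours were apart between Klf6 and Klf10 in both populations, at 108.0 and 17.2 CPM per kb in muscle and 361 and 67.4 in epithelium. In epithelium they were also apart between Klf10 and Klf5, between Klf5 and Klf3 and between Klf7 and Klf15, and in muscle between Klf4 and Klf2 and between Klf7 and Klf9. All other neighbours in the order overlapped and are not told apart, among them Klf10 and Klf4 in muscle.

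Summed over the 10 genes, the level was 138, 138 and 209 CPM per kb in the muscle libraries and 513, 458 and 507 in epithelium. Klf6 made up most of it in either population, 66.9% ± 3.70 of the sum in muscle and 73.0% ± 4.31 in epithelium (SD, n = 3). Klf10 followed with 11.0% ± 2.24 and 13.7% ± 1.72. The make-up of the rest differed between the populations. Klf4 had a share of 6.74%, 8.55% and 10.9% in muscle and 1.40%, 1.91% and 1.09% in epithelium. Klf5 had 0.218%, 0.534% and 0.111% in muscle and 5.58%, 7.35% and 5.23% in epithelium. Neither share overlapped between the populations. Shares of 1 sum depend on each other and were not tested.

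**Figure D2:**
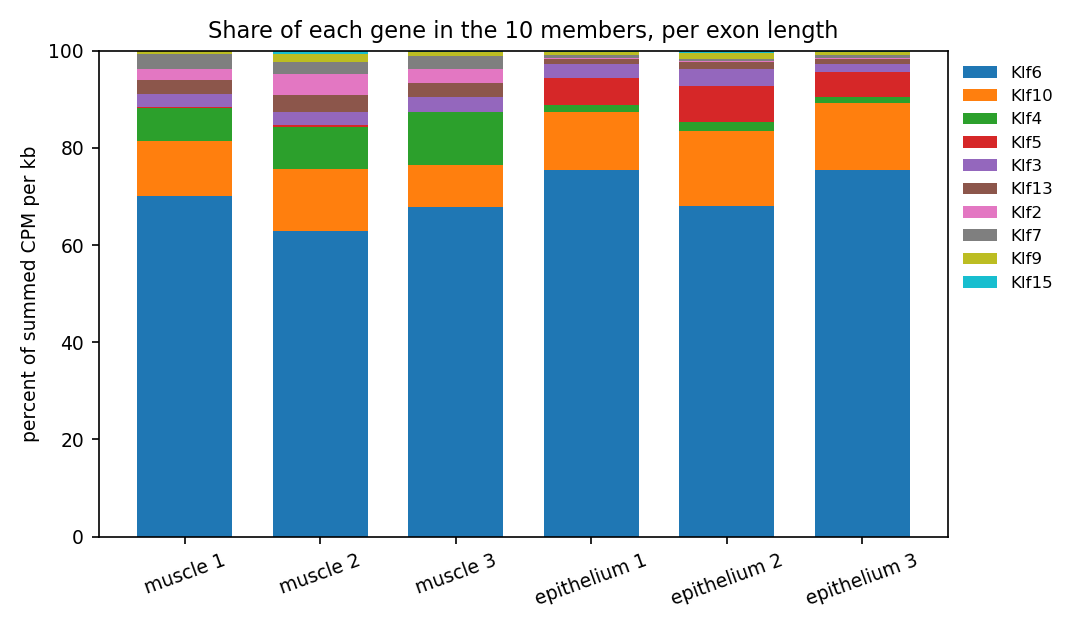
Share of each gene in the CPM per kb of exon summed over the 10 members, in percent, 1 bar per library. Klf6 fills 62.8% to 75.5% of every bar, Klf4 is wider in muscle and Klf5 is wider in epithelium.

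Klf6 and Klf10 are themselves early-response genes, so immediate early genes were set beside them. The 25 genes of that list summed to 27786, 12466 and 31129 CPM in the 3 muscle libraries and to 35091, 36538 and 42220.4 in epithelium, without overlap. Of the 25, 5 were higher in epithelium (Egr1, Egr2, Ier2, Nr4a1 and Fosl1) and 3 in muscle (Myc, Socs3 and Gadd45b), with a median log2 fold change of -0.34. Among all tested genes, 4.11% and 6.58% were called in those directions. Egr2 had 34.1 ± 5.25 CPM in muscle and 215 ± 7.99 in epithelium (SD, n = 3), or -2.66 ± 0.24 as log2 fold change (SE, adjusted p = 0.00041, edgeR). Fos, the most used marker of this response, had 0.05 ± 0.42 (adjusted p = 0.98), and its populations overlapped. These genes were singled out after their values were seen. Part of the early response can arise while tissue is dissociated, and its part in the levels of Klf6 and Klf10 was not tested.

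**Figure D3:**
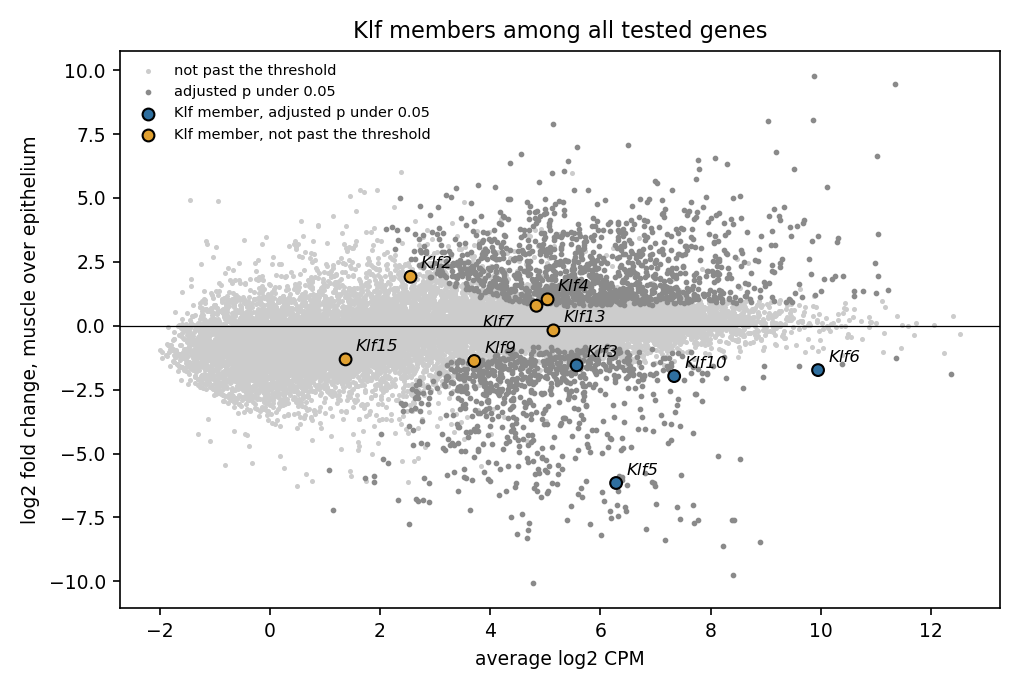
Log2 fold change of muscle over epithelium against average log2 CPM for all 19375 tested genes (grey, darker where adjusted p is under 0.05), with the 10 members named. Klf6 lies among the most abundant genes at an average log2 CPM of 9.95, and Klf5 is the member farthest from 0.

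On the later of the dates read from the identifiers, with 2 libraries per population, log2 fold changes were -6.77 for Klf5, -2.04 for Klf10 and -1.77 for Klf6, each called by edgeR (adjusted p = 0.00016, 0.0013 and 0.0047), and -1.28 for Klf3. The earlier date has 1 library per population and allows no test. There the log2 ratio of CPM was -5.51 for Klf5, -1.98 for Klf10, -1.84 for Klf6 and -2.19 for Klf3. It was 2.32 for Klf2, 0.44 for Klf4 and 0.87 for Klf7, so these kept the sign of the full comparison on either date.

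The rest of the family was described from a fixed list of 16 genes, the other 7 Klf genes and the 9 Sp genes, which have like zinc fingers. None was called higher in muscle and none in epithelium by edgeR, with 1 and 0 at an unadjusted p under 0.05. Of all 19375 tested genes, 2613 and 1584 had such an unadjusted p. Among all tested genes, edgeR called 6.58% and 4.11%. DESeq2 called 1 higher in muscle and 2 in epithelium, and limma-voom 1 and 0. Of all 19375 tested genes, DESeq2 called 1954 and 1585 and limma-voom 1590 and 896. The median log2 fold change was -0.45. Klf11, the closest relative of Klf10, had 138, 81.3 and 182 CPM in muscle replicates 1 to 3, against 206, 213 and 229 in epithelium. There was no overlap between the populations, but at -0.69 ± 0.31 (log2 fold change, SE) it did not pass (adjusted p = 0.24, edgeR). At 32.7 ± 12.4 CPM per kb in muscle and 52.9 ± 2.89 in epithelium (SD, n = 3), Klf11 stood above every member except Klf6 in muscle, and except Klf6 and Klf10 in epithelium, by its mean. Klf12, which like Klf3 binds CtBP, had 56.9 ± 14.4 and 57.5 ± 14.2 CPM in the populations, and its log2 fold change was close to 0 (-0.01 ± 0.28, adjusted p = 0.99). The widely expressed Sp1 (0.30 ± 0.23, adjusted p = 0.63) and Sp3 (-0.30 ± 0.30, adjusted p = 0.76) did not pass, nor did Sp5 (-0.80 ± 1.76, adjusted p = 0.92), a Wnt target at a mean of 0.837 CPM in muscle and 1.45 in epithelium.

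**Figure D4:**
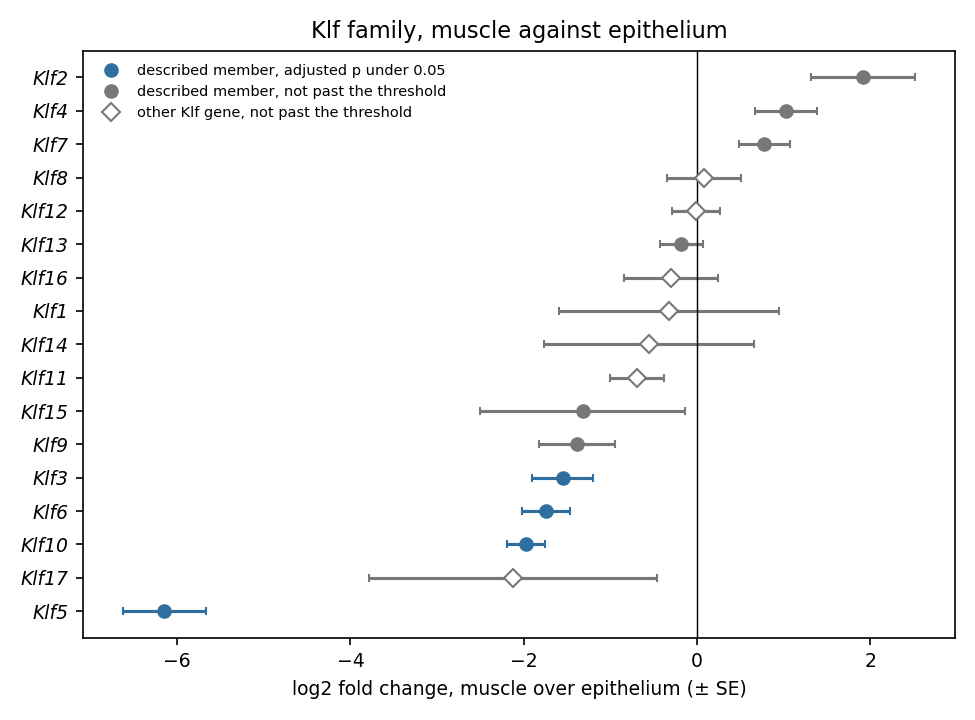
Log2 fold change of muscle over epithelium with its standard error for all 17 Klf genes, circles for the 10 members and open diamonds for the other 7, blue where adjusted p is under 0.05 in edgeR. The 4 called genes run from -6.15 (Klf5) to -1.55 (Klf3), and the 3 members with values above 0 are Klf2, Klf4 and Klf7.

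Of 34 genes for partners and regulators of Klf factors, edgeR called 2 toward muscle and 1 toward epithelium. The shares over all tested genes were 6.58% and 4.11%, so these counts are near the background. Mef2c and Mef2d encode factors that, downstream of the kinase Mapk7 (Erk5), are known to activate Klf2 and Klf4 in endothelium. Mef2c had 159, 148 and 159 CPM in the muscle libraries and 1.64, 25.8 and 11.2 in epithelium, which is 3.62 ± 0.79 as log2 fold change (SE, adjusted p = 0.020, edgeR). Mef2d had 23.9 ± 8.97 CPM in muscle and 8.42 ± 3.39 in epithelium (SD, n = 3), or 1.5 ± 0.40 on the log2 scale (adjusted p = 0.047). Mapk7 (0.21 ± 0.35, adjusted p = 0.90) did not pass. Sap30, a subunit of the Sin3 complex, was higher in epithelium, with 74.7 ± 27.8 CPM against 10.3 ± 7.56, at -2.85 ± 0.55 on the log2 scale (adjusted p = 0.011). The median over the 34 genes was 0.20. The calls of Mef2c and Mef2d were not stable as a count: without muscle replicate 1, muscle replicate 3 or epithelium replicate 3 the list had 0 genes higher in muscle, and without epithelium replicate 2 it had 1. Without muscle replicate 3 it had 2 higher in epithelium.

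A list of 30 genes that are described as targets of Klf factors had 29 in the table and 26 tested. Of these, edgeR called 8 toward muscle and none toward epithelium, with 10 and 1 at an unadjusted p under 0.05. Of all 19375 tested genes, 2613 and 1584 had such an unadjusted p. The edgeR shares over all tested genes were 6.58% and 4.11%. For epithelium DESeq2 called 1 and limma-voom 0, where they called 1585 and 896 of all 19375 tested genes. The median was -0.01. Tagln and Myocd, genes of the contractile programme, had log2 fold changes of 6.15 ± 0.59 (SE, adjusted p = 0.00049, edgeR) and 5.29 ± 0.98 (adjusted p = 0.0095), and Tagln is also a marker used here for smooth muscle. Thbd, an anticoagulant receptor gene that Klf2 activates in endothelium, had 530.4, 259 and 427 CPM in the muscle libraries and 4.83, 52.3 and 6.84 in the epithelial ones, which gave 4.27 ± 0.90 on the log2 scale (adjusted p = 0.017). The count in muscle was 5 without muscle replicate 1 or muscle replicate 3 and 3 without epithelium replicate 3. Muscle was gated on a smooth muscle actin reporter, and the action of Klf factors on these genes was not tested.

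For the 4 called members, the genes whose log2 CPM followed most closely over the 6 libraries were Mbp (Pearson r = 0.9991) and Fam84b (0.9987) for Klf5, Gprc5a (0.9987) and Npnt (0.9978) for Klf10, Fam174b (0.997) and Avpi1 (0.9963) for Klf6, and Pkn2 (0.9965) and Phtf1 (0.9923) for Klf3. They come from 9358 candidates whose average log2 CPM was 4 or more. The libraries form 2 populations, so these values mostly carry the difference between them, and 99 to 251 genes had an r above 0.95 with each member.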

How the data were processed

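RNA was measured in 6 libraries, 3 of sorted muscle and 3 of sorted epithelium, made with SMART-Seq v4 and Nextera XT per the labels' protocols. Such libraries have no molecular identifiers and as usually made keep no strand, and counts include PCR copies. The deposited table holds raw counts per gene symbol. The submitters' processing notes name mm10, Trim Galore, Bowtie2, Cufflinks and DESeq without versions; the counting program and annotation are not given in the sources used here. Libraries were grouped by their titles.

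The analysis ran in R 4.3.3. Low genes were removed (filterByExpr, with the groups), TMM factors (trimmed mean of M-values) were used for scaling, and the test was that of edgeR 4.0.16 (robust quasi-likelihood, two-sided, no covariate), with Benjamini-Hochberg adjustment and a threshold of 0.05. Standard errors derive from the test statistic. CPM used TMM-scaled library sizes. Alternatives used limma 3.58.1, DESeq2 1.42.0, other scalings and filters, a stricter threshold, covariates and fewer libraries. The stricter threshold was set on the main fit itself, so it could not call a gene that the main fit had not called. On simulated counts of 19017 genes for this comparison the test recovered 82% of the 100 genes changed by 2 on the log2 scale. Of its 194 calls, 15 were false. The simulation capped the spread between libraries, so recovery in the real data may be lower. It changed only genes above a set mean CPM and does not cover genes as low as Klf15. An exact permutation test of 3 against 3 cannot give a p under 0.10. The members and lists were chosen with earlier results of these data known. Genes named outside the members were Actg2 and Epcam, 9 picked by subject, and in each list up to 3 called genes per direction with the largest change, an average log2 CPM of at least 2 and no overlap; others are said to be singled out or are marker genes. Those most like a called member were the 2 with the highest r.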

Additional observations from a re-analysis of the deposited data

How the results depend on the processing

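Klf5, Klf6 and Klf10 were called in all 18 alternatives, and no member changed sign in any. Leaving out each library in turn gave log2 fold changes of -6.79 to -5.83 for Klf5, -1.97 to -1.59 for Klf6, -2.05 to -1.90 for Klf10, -1.93 to -1.40 for Klf3 and -1.98 to -0.84 for Klf15. Klf3 passed in 14 of 18 alternatives. It did not pass at an adjusted p under 0.01 (-1.55), in the later identifier date alone (-1.28), with the replicate number as a block (replicate block, -1.53, adjusted p = 0.073) or without muscle replicate 1. Klf2 passed with DESeq2 (1.83) and with background counts as a covariate (1.95), which made the number of members higher in muscle 1 in each. Klf9 passed with DESeq2 (-1.48) and with the identifier date as a term (-1.36).

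The replicate block changed no other member's call. The libraries numbered 1, and likewise those numbered 2, share identifier text in the header across the populations, apart from the gate and a running number; those numbered 3 share only part of it, and no source says that the text marks a shared animal, litter or day. Within-population deviations correlated over 19375 genes at 0.59 for the libraries numbered 1, 0.73 for those numbered 2 and -0.57 for those numbered 3, and muscle replicate 3 correlated best with epithelium replicate 1 (0.69), so pairing was not settled and the libraries were taken to share only a number. With the block the list of partners and regulators had 0 genes higher in epithelium.

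For partners and regulators, the number higher in muscle was 1 with relative log expression factors, limma-voom, the later date alone and without the 3 libraries with many background counts, 0 with library size only and at an adjusted p under 0.01, and 4 with the date as a term. Higher in epithelium there were 2 with library size only, DESeq2 and limma-voom, and 0 at 0.01 and in the later date. Without 1 library the numbers were 0 to 2 in muscle and 1 to 2 in epithelium. For the other Klf and Sp genes, 1 was higher in muscle with DESeq2, limma-voom, the background covariate and without the 3 libraries, and in epithelium 1 with library size only and without the 3 libraries and 2 with DESeq2. For described targets, 4 were higher in muscle at 0.01, and 1 was higher in epithelium with DESeq2, the covariate and without the 3 libraries. Without 1 library they were 3 to 9 in muscle and 0 to 1 in epithelium. The fit without the 3 libraries was chosen after seeing the data and leaves 1 epithelial library, assumed to vary like muscle.

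Over all tested genes, 1439 were higher in epithelium with library size only, 1585 with DESeq2 and 1219 with the covariate. Higher in muscle were 1954 with DESeq2 and 2054 with the date as a term. At 0.01 there were 579 in muscle and 404 in epithelium. Without 1 library the numbers were 570 to 1655 in muscle and 514 to 918 in epithelium. The causes were not tested. The median log2 fold change of all genes moved from -0.10 with TMM to -0.33 with library size only, and every member's value moved down with it. Klf15 was low, with 9 counts in muscle replicate 1, and its coefficient of variation in muscle was 75.9%.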
